A study of Mus musculus with 6 samples.

Results

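The 30 genes described here act at the G1/S boundary of the cell cycle and in DNA replication. They were chosen by symbol, for function, out of 23337 genes in a count table of mouse leukemia RNA, and all 30 were found and passed the filter on low counts. The leukemia is described as neonatal and primary, and as MLL-rearranged in the series title. The 3 ccl5 libraries came from leukemia treated with the chemokine ccl5 and the 3 control libraries from leukemia under control conditions. The labels place ccl5 replicate 1 (neo30ccl5) in a tertiary transplant. They place ccl5 replicates 2 and 3 (neo10ccl5) and control replicate 3 (neo10ctrl) in a primary transplant, and they name no transplant for control replicates 1 and 2. Neither mouse age, strain, fusion partner nor dose is given in the labels used here. No label used here says that each library came from a separate animal, so p-values measure the spread between these libraries, part of which may be technical.

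Before a cell copies its DNA, CDC6 and CDT1 load the MCM2-7 ring onto origins during G1, and CDC45 and the GINS complex then turn that ring into the active helicase. Polymerases, the PCNA clamp and its loader RFC build the new strands, ribonucleotide reductase and thymidylate synthase supply the nucleotides, and chromatin factors restore histones and DNA methylation behind the fork. Most of these genes are transcribed under E2F control when cyclin E and CDK2 free E2F from RB, so their RNA is widely read as a mark of cycling cells, in blood progenitors and leukemia as elsewhere.

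The libraries did not group by their labels, which were used as given, and whether each label matches its leukemia was not tested. Every ccl5 against control value below rests on those labels. Over the 12174 tested genes, ccl5 replicate 2 and control replicate 3 were alike across the labels (Pearson r 0.996 of log2 CPM over genes), as were ccl5 replicates 1 and 3 (0.995) and control replicates 1 and 2 (0.996), while all other pairs gave 0.836 to 0.897. CPM is the usual count scaled to library size, with TMM factors applied. These factors were 0.846, 1.19 and 0.819 for ccl5 replicates 1 to 3, and 1.02, 1.02 and 1.17 for control replicates 1 to 3. Each of the 3 alike pairs still differed beyond sampling noise, with a mean chi-square per gene of 3.55 to 7.27 where 1 stands for counting error. The libraries were counted separately, but this value cannot tell separate samples from repeat libraries of 1 sample. Gene counts summed to between 13421100 and 18445100 per library. A floor of 3 counts came to between 0.160 and 0.273 CPM, and every member was above it in every library. Y-linked genes had 0 counts in ccl5 replicates 1 and 3 and 5103 to 7777 in the other libraries, so that ccl5 replicates 2 and 3, which share the label neo10ccl5, differed. Xist, an RNA of the X chromosome, had 29408 and 25725 counts in ccl5 replicates 1 and 3 and 3 to 77 in the other libraries. By these counts, ccl5 replicates 1 and 3 were not repeat libraries of a sample behind any of the others. Summed neutrophil granule markers (9 of 9 in the table) measured 13461 CPM in ccl5 replicate 2 and 13208 in control replicate 3, against 803 to 2436 in the other libraries. Summed monocyte and macrophage markers (12 of 12) were lowest in these libraries, at 4142 and 4498 CPM against 12012 to 25885. The leukocyte gene Ptprc was present in every library at 522 to 783 CPM. T-cell markers (5 of 6 in the table) summed to at most 0.550 CPM, with Cd3e, Cd3g and Cd4 at 3 counts or fewer in every library. Stromal and endothelial markers summed to 28.9 to 95.7 CPM, nearly all from Pecam1. The part of these differences in the results below was not tested.

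The promoters of several members are shown, chosen by their number of E2F-like sites and without regard to RNA level. RefSeq windows of 300 bases (250 before and 50 after the start, GRCm38.p6) were matched for 25 of the 30 members. An E2F-like word (the word TTCCCGC or its relatives, spelled TTCGCGC, also spelled TTGCCGC, or spelled TTGGCGC, on either strand, with overlapping matches counted as 1 site) occurred in 16 of these 25 (64%), against 17.6% of 8722 windows of tested genes and 12.7% of 15705 windows of all genes in the table. Among 71 windows of the other replication genes listed further on, 33 held such a word (46.5%). At least 2 sites occurred in 8 members (32%), against 8.45% of those replication genes and 2.41% of tested genes. A CCAAT box, the word bound by NF-Y, also occurred in 16 of 25 (64%, against 46.5% of the other replication genes and 39.3% of tested genes). The word TTTGAA, known from promoters of genes that peak later in the cycle, occurred in 2 of 25 (8%, against 16.9% and 11.9%). The 6 windows below held the most E2F-like sites, with ties taken in alphabetical order, and capitals mark those words.
Pola1: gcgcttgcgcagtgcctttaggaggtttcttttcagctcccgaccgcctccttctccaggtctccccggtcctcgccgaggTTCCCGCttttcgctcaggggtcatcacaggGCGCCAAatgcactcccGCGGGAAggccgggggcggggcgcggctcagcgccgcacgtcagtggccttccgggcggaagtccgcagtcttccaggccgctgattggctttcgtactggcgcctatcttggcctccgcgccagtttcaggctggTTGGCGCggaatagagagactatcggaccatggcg
Mcm6: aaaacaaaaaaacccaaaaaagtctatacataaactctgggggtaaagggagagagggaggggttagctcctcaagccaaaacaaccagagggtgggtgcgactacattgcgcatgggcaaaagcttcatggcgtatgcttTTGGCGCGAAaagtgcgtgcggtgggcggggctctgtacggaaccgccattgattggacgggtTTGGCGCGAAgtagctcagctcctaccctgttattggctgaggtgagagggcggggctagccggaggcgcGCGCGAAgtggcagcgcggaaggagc
Cdt1: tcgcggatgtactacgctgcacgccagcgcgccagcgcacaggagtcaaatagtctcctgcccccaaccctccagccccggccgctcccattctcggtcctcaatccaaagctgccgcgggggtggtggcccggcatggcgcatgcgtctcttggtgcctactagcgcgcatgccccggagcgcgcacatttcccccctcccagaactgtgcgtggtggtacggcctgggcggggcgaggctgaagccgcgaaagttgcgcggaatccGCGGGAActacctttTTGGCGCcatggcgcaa
Chaf1b: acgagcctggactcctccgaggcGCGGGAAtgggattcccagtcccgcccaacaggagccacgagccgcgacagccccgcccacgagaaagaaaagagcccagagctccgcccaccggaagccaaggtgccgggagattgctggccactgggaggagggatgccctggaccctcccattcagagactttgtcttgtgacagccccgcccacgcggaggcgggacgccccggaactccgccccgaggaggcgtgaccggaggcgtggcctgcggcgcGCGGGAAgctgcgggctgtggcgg
Mcm3: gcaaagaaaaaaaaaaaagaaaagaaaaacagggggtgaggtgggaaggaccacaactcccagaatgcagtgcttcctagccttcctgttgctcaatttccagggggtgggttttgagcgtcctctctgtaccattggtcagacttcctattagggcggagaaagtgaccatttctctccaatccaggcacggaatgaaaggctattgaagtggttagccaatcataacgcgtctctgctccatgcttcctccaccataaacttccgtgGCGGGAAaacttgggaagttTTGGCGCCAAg
Mcm5: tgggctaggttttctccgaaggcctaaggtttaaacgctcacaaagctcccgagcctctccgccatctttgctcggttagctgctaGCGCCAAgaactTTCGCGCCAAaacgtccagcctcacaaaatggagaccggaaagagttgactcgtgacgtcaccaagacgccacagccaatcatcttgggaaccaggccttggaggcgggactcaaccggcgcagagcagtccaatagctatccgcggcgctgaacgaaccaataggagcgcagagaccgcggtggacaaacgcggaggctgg
These windows lie at chrX:93632106-93632405 (minus strand) for Pola1, chr1:128359656-128359955 (minus) for Mcm6, chr8:122567765-122568064 (plus) for Cdt1, chr16:93883651-93883950 (plus) for Chaf1b, chr1:20820263-20820562 (minus) for Mcm3 and chr8:75109259-75109558 (plus) for Mcm5. Pola1 held 4 sites and Mcm6 held 3. Cdt1 and Chaf1b, whose RNA did not follow the pattern of the other 4 genes across libraries, held 2 sites each, as Mcm3 and Mcm5 did. Pcna, another such member, held none of these words in its window, and neither did Ccne1 and E2f1, while Rrm2 and E2f2 held 1 site each. Mcm2, Mcm10, Cdc45, Tyms, Ung and Slbp, which did follow that pattern, held none either. A link between sites and pattern was not tested. Of the windows shown, the RefSeq start lay 99, 49 and 19 bases from the gene's start in the count table's annotation for Mcm3, Mcm6 and Mcm5, and at the same base for the other 3. For E2f2, Cdc6, Slbp and E2f1 the starts were 120, 262, 268 and 426 bases apart.

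No member passed the test between ccl5 and control libraries. With a threshold of 0.05 on the adjusted p of edgeR's quasi-likelihood test, 0 of 30 members were called (adjusted p from 0.365 to 0.990), and so were 0% of all tested genes. DESeq2's Wald test called 0 members as well, where it called 0.702% of genes higher and 0.376% lower with ccl5. At an unadjusted p under 0.05 there were 2 members higher with ccl5, Cdt1 and E2f2 (8.99% of all tested genes), and 0 lower (4.67%). The log2 fold change of ccl5 over control was negative for 23 members and positive for 7, with a median of -0.29 against -0.01 over all tested genes and a median SE of 0.66 among members against 0.31. In TMM-scaled CPM, groups did not overlap for 3 members, all higher with ccl5 (Cdt1, Pcna and E2f2), and for 0 that were lower. Over all tested genes the shares were 8.27% and 7.49%. A share of 10% is near that background. Over library totals without TMM factors all 3 overlapped, with control replicate 3 above a ccl5 library. For Pcna that was 5584 of 15507800 counts against 5943 of 16613800 in ccl5 replicate 1. For Cdt1 it was 758 of 15507800 against 578 of 13421100 in ccl5 replicate 3, and for E2f2 666 against 450 in those libraries.

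The large differences among members lay inside the treatment groups. For 23 of 30 members (76.7%), ccl5 replicate 2 and control replicate 3 held the highest 2 values and ccl5 replicates 1 and 3 the lowest 2, against 16% of all tested genes. The library with the highest value was ccl5 replicate 2 for 23 members, and the lowest was ccl5 replicate 3 for 23 members. Centred on each gene's mean over the 6 libraries, the median log2 level of the members ran -0.68, 1.01, -1.10 over the ccl5 libraries in order of replicate number, and -0.15, 0.06, 0.87 over the control libraries. The same medians over all tested genes stayed between -0.01 and 0.01, near 0 where TMM scaling tends to hold them. For 20 G2/M and mitosis genes they ran -1.69, 1.59, -2.22 for ccl5 and 0.33, 0.45, 1.55 for control, a wider range in the same order of libraries, and the difference from the replication genes was not tested. In these bulk samples a smaller share of cycling cells and less RNA per cell cannot be told apart.

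**Figure D1:**
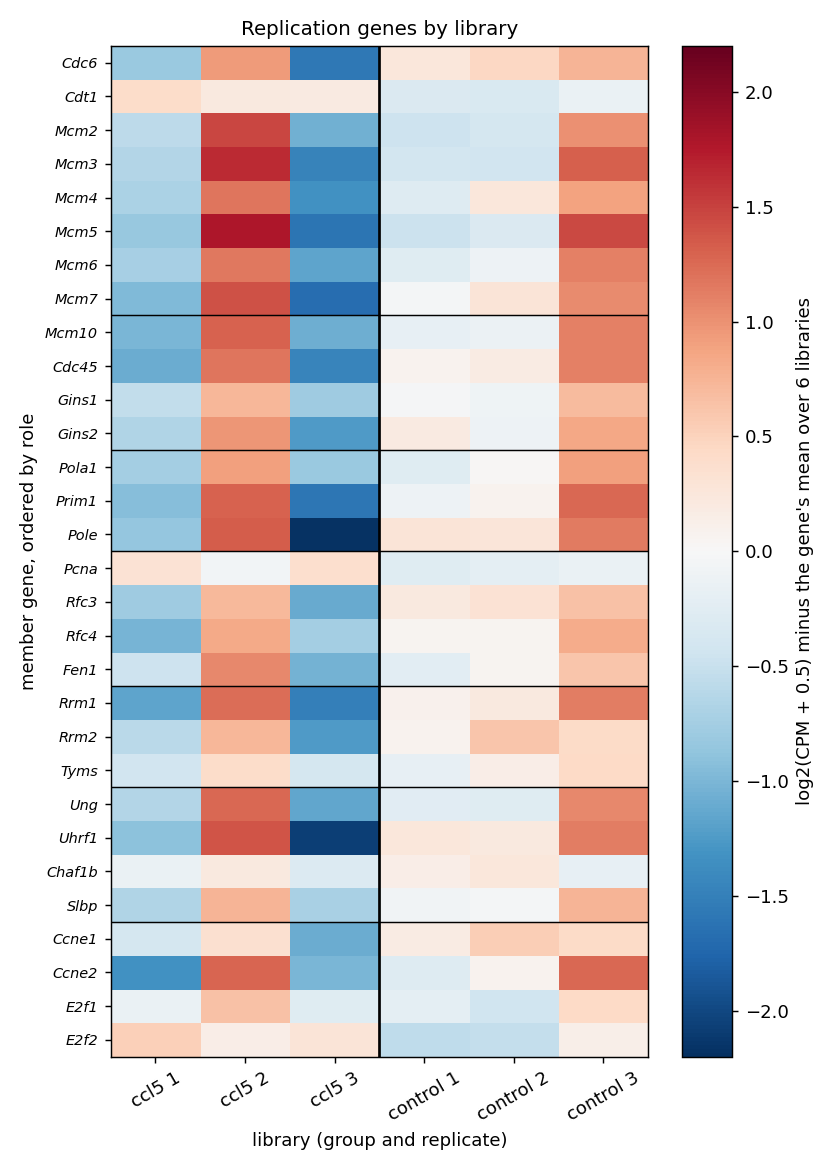
Heat map of log2(CPM + 0.5) minus each gene's mean over 6 libraries, with the 30 members ordered in blocks by role and the libraries as columns, ccl5 left of the black line and control right of it. Red is above and blue below the gene's mean. Most genes are red in ccl5 2 and control 3 and blue in ccl5 1 and ccl5 3, while Cdt1, Pcna, Chaf1b and E2f2 stay pale.

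Among the licensing factors, the 6 subunits of the MCM2-7 ring shared 1 layout. Mcm5 (chromosome 8, 75109528 to 75128439, mm10) read 21.2, 132 and 12.2 CPM under ccl5 (libraries in the order 1 to 3, here and below), against 27.2, 30.4 and 104 CPM under control conditions. Its highest library was thus 10.8-fold above its lowest, both of them ccl5 libraries. The group means were 55.1 ± 66.8 against 54.0 ± 43.7 CPM (SD, n = 3 each), a log2 fold change of 0.03 (SE 1.01). Mcm2 (chromosome 6, 88883474 to 88898780) measured 27.1, 114 and 19.4 CPM under ccl5, against 29.5, 30.9 and 82.8 CPM under control conditions. Mcm3 (chromosome 1, 20803014 to 20820213) measured 31.8, 157 and 17.7 against 37.7, 37.1 and 125 CPM. Both stayed at nearly the same group means, with log2 fold changes of 0.16 (SE 0.79) and 0.05 (SE 0.93). Mcm4 measured 20.9, 78.0 and 13.3 against 28.2, 40.8 and 63.9 CPM. Mcm6 measured 69.2, 260 and 51.2 against 95.6, 107 and 251 CPM. Mcm7 (chromosome 5, 138164589 to 138171862) measured 23.3, 122 and 14.1 against 44.6, 56.1 and 95.2 CPM. In all 6 subunits the groups overlapped, because ccl5 replicate 2 exceeded every control.

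Per kilobase of exon, the level of Mcm6 RNA was the highest of the 6 subunits in each library, although the ring holds the subunits in equal number. It measured 23.9, 89.6 and 17.7 CPM per kilobase under ccl5, against 33.0, 37.0 and 86.4 under control conditions. The lowest subunit per kilobase was Mcm4 in 4 libraries and Mcm5 in ccl5 replicate 3 and control replicate 2. Mcm6 stood 4.10- to 4.96-fold above the lowest subunit in the 6 libraries, so that ratio changed little while the summed level of the 6 subunits ran from 42.7 to 289 CPM per kilobase.

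**Figure D2:**
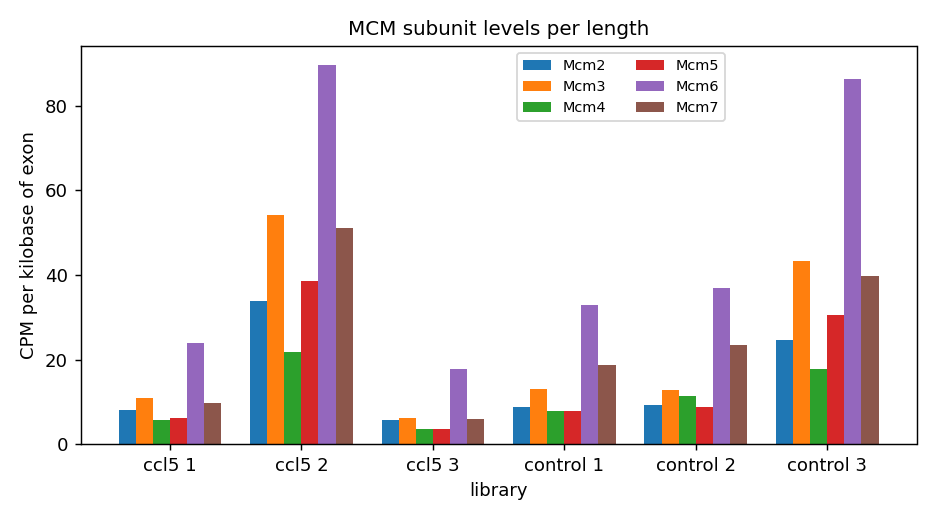
Bars give CPM per kilobase of exon for the 6 MCM2-7 subunits in each of the 6 libraries, 1 bar per subunit and library. Mcm6 is the tallest bar in each library, and all bars are tallest in ccl5 2 and control 3.

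Cdc6, the ATPase that brings the MCM ring to origins (chromosome 11, 98907889 to 98923942), followed the same order of libraries at 7.91, 27.7 and 4.46 CPM under ccl5, against 17.1, 19.7 and 24.4 CPM under control conditions (log2 fold change -0.60, SE 0.67). Cdt1, its partner in loading (chromosome 8, 122568015 to 122573130), did not. It measured 60.8, 53.4 and 52.6 CPM under ccl5, against 36.7, 36.4 and 41.7 CPM under control conditions. In TMM-scaled CPM each ccl5 library lay above each control, which did not hold without TMM factors. The means were 55.6 ± 4.54 and 38.3 ± 2.97 CPM (SD, n = 3 each), a log2 fold change of 0.54 (SE 0.14). The unadjusted p was 0.00977 and the adjusted p 0.365 in edgeR's quasi-likelihood test, and the adjusted p was 0.0504 in DESeq2. Between ccl5 replicate 2 and control replicate 3, Cdt1 was 1.28-fold higher in the ccl5 library, within the range of the other members (0.951 to 1.37).

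The helicase activators varied like the ring. Cdc45 measured 13.7, 67.9 and 10.5 CPM under ccl5, against 31.5, 33.7 and 64.5 CPM under control conditions (log2 fold change -0.49, SE 0.77). Mcm10, which helps start unwinding, measured 7.76, 40.6 and 7.37 against 14.2, 14.7 and 35.3 CPM. The GINS subunits spanned less, and in Gins2 the highest library was 5.08-fold above the lowest. Gins1 measured 7.48, 18.8 and 6.28 against 11, 10.4 and 18.3 CPM, and Gins2 measured 6.27, 20.3 and 4.0 against 11.8, 9.33 and 18.8 CPM. Gins2 shares 118 exon bases with Gse1, so without strand its reads there cannot be told apart.

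Of the polymerase genes, Pole, the catalytic subunit of the leading-strand polymerase epsilon, had the widest span of all members at 14.0-fold (chromosome 5, 110286319 to 110337453). It measured 5.77, 28.0 and 2.0 CPM under ccl5, against 13.2, 13.1 and 24.4 CPM under control conditions. Prim1, the primase that makes RNA primers, measured 8.33, 40.9 and 5.10 against 15.1, 17.2 and 40.1 CPM, with ccl5 replicate 2 and control replicate 3 nearly equal. Pola1, the polymerase that extends those primers (X chromosome, 93304766 to 93632155), measured 17.1, 54.4 and 16.2 against 23.8, 29.6 and 54.1 CPM. All 3 genes had negative fold changes with wide errors, from -0.50 (SE 0.92) for Pole to -0.29 (SE 0.58) for Pola1 on the log2 scale.

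Pcna, the sliding clamp (chromosome 2, 132249286 to 132253180), did not share the layout of the other members of its group. It measured 423, 324 and 440 CPM under ccl5, against 282, 291 and 307 CPM under control conditions. With TMM factors, all ccl5 libraries were above all controls, and ccl5 replicates 1 and 3, where most members were lowest, gave its highest values. Without these factors, ccl5 replicate 2 was highest, at 5307 of 13840200 counts, and ccl5 replicate 1 fell below control replicate 3. Its means were 396 ± 62.6 and 293 ± 12.6 CPM (SD, n = 3 each), with a log2 fold change of 0.43 (SE 0.18) and an adjusted p of 0.367 in edgeR's test. Pcna made up 39.6%, 13.7% and 47.0% of the summed CPM of the 30 members under ccl5, against 24.2%, 22.6% and 14.6% under control conditions. The loader subunits Rfc3 and Rfc4 kept the common highest and lowest pairs of libraries. Rfc3 measured 8.33, 24.5 and 6.55 against 17.1, 18.5 and 23.2 CPM. Rfc4 measured 6.91, 26.6 and 8.46 against 15.3, 15.3 and 26.1 CPM, and 160 of its exon bases are shared with Eif4a2. Fen1, the nuclease that trims Okazaki flaps, measured 22.7, 66.4 and 15.0 against 26.6, 32.7 and 48.6 CPM, a log2 fold change of -0.05 (SE 0.59).

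**Figure D3:**
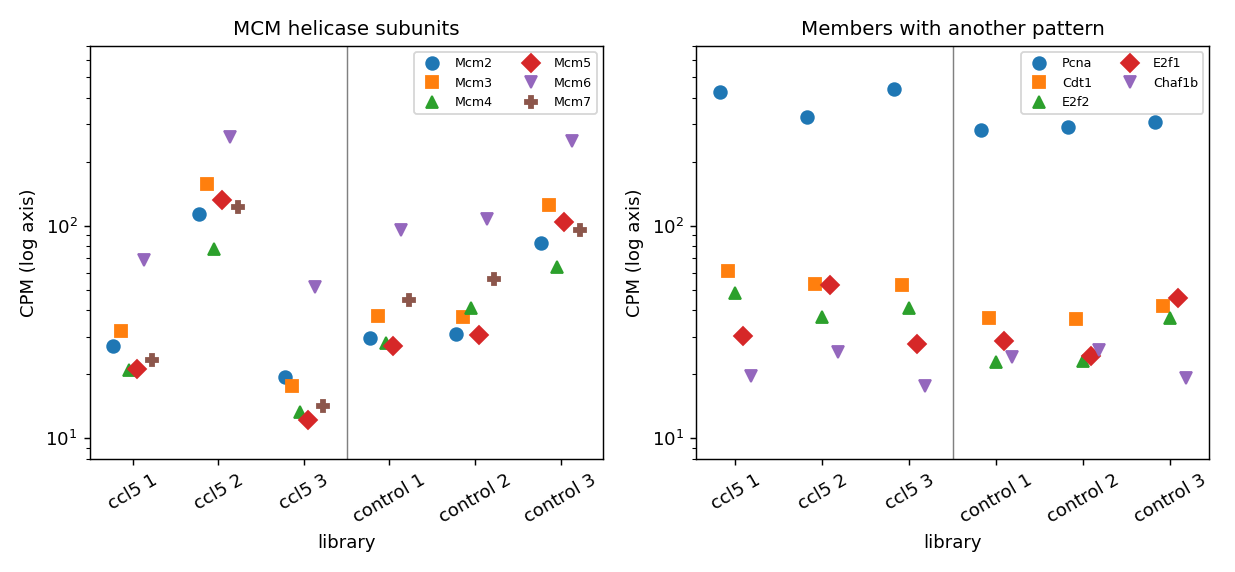
Points give CPM on a log axis in each library for the 6 MCM2-7 subunits (left) and for Pcna, Cdt1, E2f2, E2f1 and Chaf1b (right), with small sideways offsets for legibility and ccl5 left of the grey line. In this TMM-scaled CPM the MCM points rise in ccl5 2 and control 3, whereas Pcna, Cdt1 and E2f2 are higher in all ccl5 libraries than in all controls.

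The nucleotide supply genes moved by different amounts. Rrm1, the large subunit of ribonucleotide reductase (chromosome 7, 102441695 to 102469771), measured 42.6, 225 and 33.5 CPM under ccl5, against 103, 112 and 210 CPM under control conditions. Its small subunit Rrm2 measured 35.6, 90.0 and 22.3 against 56.9, 82.0 and 72.5 CPM, with control replicate 2 rather than 3 the highest control. Tyms, which makes thymidylate, spanned only 1.83-fold, at 40.9, 73.3 and 41.8 against 48.5, 61.3 and 74.8 CPM. A Tyms pseudogene is also in the table, so reads may be split between the copies.

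Among repair and chromatin genes, Uhrf1, which brings the maintenance methyltransferase DNMT1 to newly copied DNA, spanned 11.6-fold (chromosome 17, 56303337 to 56323486). It measured 18.2, 90.9 and 7.83 CPM under ccl5, against 41.0, 40.3 and 75.4 CPM under control conditions. Ung, the uracil glycosylase that removes uracil from DNA, was the scarcest of these genes at 2.78, 11.8 and 1.82 against 3.80, 3.79 and 10.2 CPM. Slbp, which binds the stem-loop of replication-dependent histone mRNAs, measured 31.2, 83.5 and 30.2 against 47.1, 48.4 and 84.4 CPM. Chaf1b, a subunit of the chromatin assembly factor CAF-1, had the smallest span of all members at 1.47-fold. It measured 19.7, 25.5 and 17.7 against 24.0, 26.0 and 19.1 CPM, with control replicate 3 among the lowest libraries.

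The regulators split. Ccne2, which encodes cyclin E2, kept the common highest and lowest pairs of libraries at 1.64, 12.5 and 2.18 CPM under ccl5, against 3.93, 5.17 and 12.4 CPM under control conditions. Its values are uncertain because 1734 of its 3217 exon bases are shared with Ints8. Ccne1, which encodes cyclin E1, measured 7.05, 12 and 4.10 against 10.7, 13.8 and 12.7 CPM and had the most negative fold change of the members (log2 -0.67, SE 0.42, adjusted p = 0.487 in edgeR's test). E2f1, an activator of this programme, measured 30.3, 52.5 and 27.7 against 28.7, 24.5 and 45.7 CPM. E2f1 was thus high in ccl5 replicate 2 and control replicate 3 and level among the other libraries. E2f2, a second activator (chromosome 4, 136172394 to 136196056), measured 48.2, 36.9 and 41.0 against 22.7, 23.1 and 36.6 CPM. With TMM factors, every ccl5 library was above every control, but ccl5 replicate 2 exceeded control replicate 3 only 1.01-fold. Without these factors, ccl5 replicates 1 and 3 fell below control replicate 3. Its means were 42.0 ± 5.71 and 27.5 ± 7.94 CPM (SD, n = 3 each), with a log2 fold change of 0.61 (SE 0.25) and an adjusted p of 0.365 in edgeR's test.

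Within the alike pairs, members still differed a little. In ccl5 replicate 2, 27 of 30 members were higher than in control replicate 3, as were 6156 of the 12174 tested genes. The members had a median ratio of 1.11 (after adding 0.5 CPM), with no member reaching 2-fold. Mcm2 and Fen1 had the largest of these ratios, 1.37 each. In ccl5 replicate 1, 26 members were higher than in ccl5 replicate 3, as were 6581 of the 12174 tested genes. The members had a median ratio of 1.32, and Pole and Uhrf1 reached 2.88- and 2.32-fold. Of all tested genes, 0.37% were more than 2-fold higher there. Between control replicates 1 and 2 the median ratio was 0.93. Over all tested genes these 3 medians were 1.0, 1.01 and 0.999, near 1 where TMM scaling tends to hold them.

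Whether members were called rested on which libraries entered the fit. Without ccl5 replicate 2 and control replicate 3, edgeR compared ccl5 replicates 1 and 3 with control replicates 1 and 2, both of them closely alike pairs. Its p-values there measure only the spread inside these pairs, and whether a pair holds separate leukemias is not known. In that fit 26 members were lower and 3 higher with ccl5 at an adjusted p under 0.05, where 35.5% of all tested genes were called lower and 35.2% higher. Pole (log2 fold change -1.67), Uhrf1 (-1.59), Cdc6 (-1.52) and Rrm1 (-1.47) fell most. The 3 genes that rose were E2f2 (0.98), Cdt1 (0.65) and Pcna (0.61), and E2f1 was not called (0.15, adjusted p = 0.236 in edgeR's test). The ring subunits Mcm2, Mcm3 and Mcm5, at or just above 0 with all libraries, were lower here (-0.35, -0.56 and -0.75). Without ccl5 replicate 2 alone, 8 members were called lower (Cdc45, Cdc6, Mcm7, Rfc3, Rfc4, Rrm1, Rrm2 and Uhrf1) and 2 higher (Cdt1 and Pcna), where 11.9% and 14.3% of all tested genes were called. These fits leave libraries that also differed in Y-linked reads and marker sums, and treatment cannot be told apart from those differences. Limma-voom with quality weights, on all 6 libraries, called 22 members lower and 3 higher, where it called 33.5% and 33% of all tested genes.

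**Figure D4:**
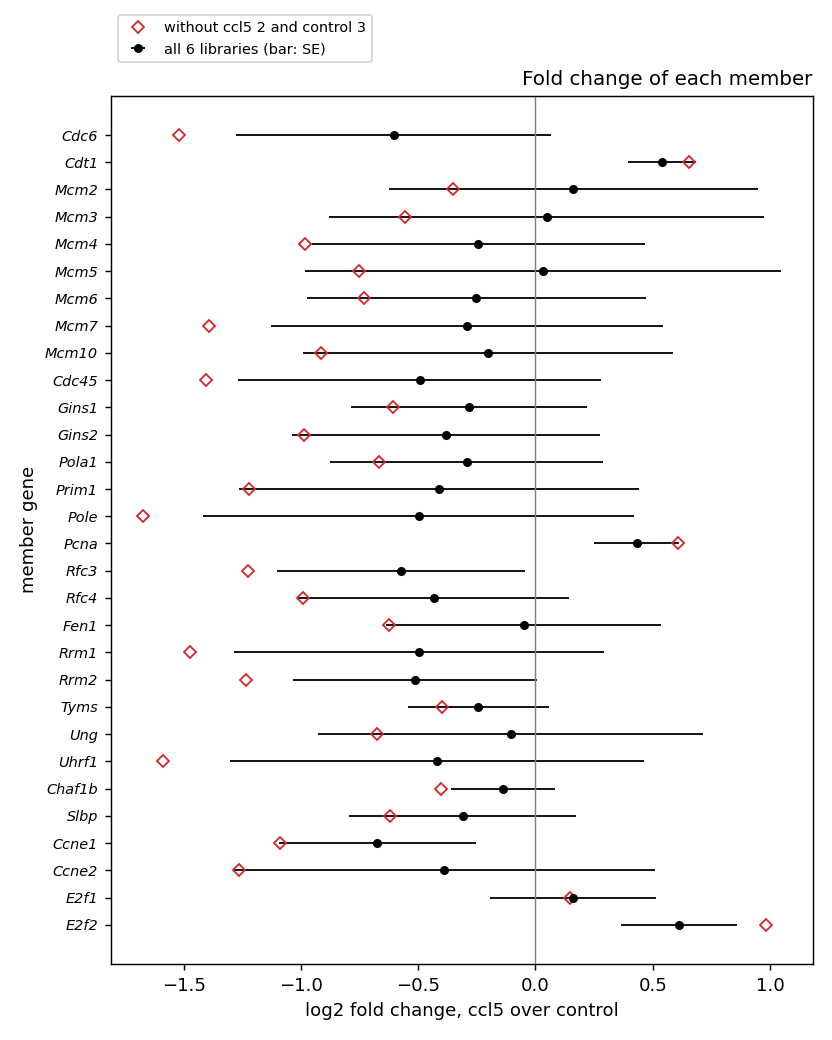
Log2 fold change of ccl5 over control for each of the 30 members, as black points with SE bars for all 6 libraries and as red diamonds for the fit without ccl5 2 and control 3. The bars of most members cross 0, and the diamonds lie left of 0 for 26 members and right of it for Cdt1, Pcna, E2f1 and E2f2.

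With only the primary transplant libraries, 2 ccl5 against 1 control and all labelled neo10, the members' median log2 fold change was -0.57 and 0 were called. There the lone control is assumed to vary like the ccl5 libraries. Leaving out ccl5 replicate 3 moved the median to 0.02 and leaving out control replicate 3 moved it to 0.11, with 0 members called where 0.541% of genes were called higher and 1.34% lower. The sign of the members' median thus depended on single libraries.

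The other genes of the pathway were taken from 8 lists by function, 88 genes in all. All 88 were tested, 0 were called in edgeR's quasi-likelihood test, 67 had a negative and 21 a positive fold change, and their median was -0.18. At an unadjusted p under 0.05, 2 were higher (Dnmt1 and Rfc2, 2.27%) and 0 lower, below the 8.99% and 4.67% of all tested genes, and DESeq2 called 0. In 51 of them (58.0%) ccl5 replicate 2 and control replicate 3 were the highest 2 libraries and ccl5 replicates 1 and 3 the lowest 2, and the difference from the 76.7% of the members was not tested. Origin recognition genes (Orc1 to Orc6) had negative fold changes in 6 of 6, as had 11 of 13 other licensing and helicase genes, 8 of 9 other polymerase subunits, 8 of 11 other clamp loader, ligase and single-strand binding genes, 8 of 11 other nucleotide supply genes, 7 of 10 other chromatin genes, 8 of 10 fork checkpoint genes and 11 of 18 other E2F, RB and cyclin partner genes. Over all tested genes 51.0% were negative.

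Of these genes, those with the smallest p among the higher ones were Dnmt1, Rfc2 and Rbl2. Dnmt1, the maintenance methyltransferase that UHRF1 recruits, measured 276, 236 and 251 CPM under ccl5, against 91.6, 94.4 and 198 CPM under control conditions (log2 fold change 0.99, SE 0.34). Rfc2, a clamp loader subunit like Rfc3 and Rfc4, measured 132, 112 and 125 against 59.5, 62.2 and 106 CPM (0.70, SE 0.26). Rbl2, which encodes the pocket protein p130 that represses E2F targets in resting cells, measured 105, 91.9 and 103 against 61.1, 56.8 and 90.5 CPM (0.53, SE 0.22). In all 3 genes each ccl5 library was above each control in TMM-scaled CPM, and scaling without TMM factors was not tried for them. On the same scale 5 of the 88 genes had groups apart (4 higher and 1 lower, 5.68%, where the share over the 12174 genes was 15.8%). The lower genes with the smallest p were Mtbp, a factor of origin firing, at 6.13, 18.3 and 7.83 against 16.3, 18.8 and 19.4 CPM, Orc2 at 16.7, 32.6 and 18 against 29.9, 32.4 and 31.5 CPM, and Ctps, which makes CTP, at 11.8, 31.7 and 7.10 against 32.5, 36.6 and 25.8 CPM. For the lower genes the groups overlapped, since ccl5 replicate 2 reached the range of the controls.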

How the data were processed

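Per the labels' protocols, poly(A) RNA of 6 mouse leukemia samples was read from 1 end, 100 bases long. The table the authors deposited holds raw read counts per gene, made with featureCounts 1.5.1 from primary alignments and the UCSC mm10 genes without a strand option, per the file headers. The submitters' processing notes also list Trimmomatic, Bowtie, TopHat and DESeq2 but give no version.

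Counts were scaled by TMM and genes with low counts removed with filterByExpr (minimum count 10), which left 12174 of 23337 genes. edgeR 4.0.16 (R 4.3.3) tested ccl5 against control on all of them with its quasi-likelihood F test, two-sided, with Benjamini-Hochberg adjustment over all tested genes and a threshold of 0.05. No block was used, since the groups share only the label number neo10. The test was tried on simulated counts. DESeq2 1.42.0 and limma 3.58.1 served as alternatives. All 30 members are named, and of 88 other replication genes the 3 higher and 3 lower genes of smallest p whose average log2 CPM was 1 or more. The members, lists and rules were chosen with earlier results of these data known. Promoter windows came from RefSeq (GRCm38.p6), the assembly that mm10 stands for. Some marker lists of other blood cell types are not reported here.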

Additional observations from a re-analysis of the deposited data

How the results depend on the processing

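Changing TMM to DESeq2 size factors, or changing the filter, did not move the test result for the members. No fit used plain library size. Without TMM factors the groups of Cdt1, Pcna and E2f2 overlapped, as given above. With DESeq2 size factors, no filter on low counts, a stricter filter (3 or more libraries above 1 CPM) or a threshold of 0.1, edgeR called 0 members and 0 genes, and the members' median log2 fold change stayed between -0.29 and -0.28. Over all genes, DESeq2's Wald test called 82 higher and 44 lower with ccl5, and limma-voom with quality weights called 4015 higher and 4082 lower. Limma-voom called 3 members higher and 22 lower, and 14 of the 88 related genes higher and 51 lower. The cause of the difference between tools was not tested. Leaving out 1 library at a time gave 0 to 1802 genes called higher and 0 to 1497 lower, 0 to 2 members higher and 0 to 8 lower, and 0 to 2 related genes higher and 0 to 20 lower. The members' median log2 fold change then lay between -1.34 (without ccl5 replicate 2) and 0.11 (without control replicate 3), and it was 0.02 without ccl5 replicate 3. Without control replicate 3, 68 genes were called higher and 169 lower, and 1 related gene higher. Without ccl5 replicate 2 and control replicate 3 together, the p-values rest on the spread inside alike pairs. In that fit 4378 genes were called higher and 4419 lower, 3 members higher and 26 lower, and 15 related genes higher and 55 lower, with a member median of -0.83. There Mcm2 (-0.35), Mcm3 (-0.56) and Mcm5 (-0.75) turned from positive to negative. No paired analysis was possible because the groups share fewer than 2 label numbers, namely neo10 alone, which stands on ccl5 replicates 2 and 3 and on control replicate 3. At these depths each member had at least 20 counts in each library, so the spread between libraries and not counting error set the precision.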
